A study of Mus musculus with 6 samples.

Results

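The fibrillar collagen genes were followed in tumour cells recovered from mice that had received LLC cells either alone or together with BMSCs. The members were the 10 genes whose symbols were Col1a1, Col1a2, Col2a1, Col3a1, Col5a1, Col5a2, Col5a3, Col11a1, Col11a2 and Col27a1. All 10 were found among the 18182 genes listed in the files, and 8 of them were among the 13353 genes that passed the filter on low counts. Their NCBI gene identifiers in the files are, in the same order, 12842, 12843, 12824, 12825, 12831, 12832, 53867, 12814, 12815 and 373864. The genes were chosen by name from earlier results of the same comparison, so the measured difference between the groups had a part in their selection, and their values and calls are given as a description that supports nothing.

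Fibrillar collagens are the rope-like proteins that give connective tissue its tensile strength. Each molecule is a triple helix of alpha chains, secreted as procollagen, trimmed at both ends and then packed side by side into fibrils that are cross-linked outside the cell. Type I (Col1a1 and Col1a2 chains) makes up most of bone, tendon and skin, type III (Col3a1) accompanies it in distensible tissue, type V (Col5a1, Col5a2 and Col5a3) starts and limits fibril growth, and types II, XI and XXVII (Col2a1, Col11a1, Col11a2 and Col27a1) are best known from cartilage. In tumours these genes are studied mainly as products of stromal cells, and carcinoma cells with mesenchymal traits can also transcribe them.

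LLC (Lewis lung carcinoma) is an established murine lung cancer line, here tagged with red fluorescent protein (LLC-RFP). The cells were injected under the skin of wild type C57BL/6 mice, either LLC-RFP alone (3 libraries, called LLC alone) or LLC-RFP with BMSCs, the mesenchymal stem cells of bone marrow (3 libraries, called LLC with BMSCs), and fluorescent cells were sorted from the primary tumours for RNA sequencing. The hosts kept their own stroma and immune cells, and the labels name a tag for the LLC cells only. The study's methods name young female mice for allografts of another tagged LLC line, whereas the labels of these libraries give no age or sex. Nor do they say whether a library came from a single mouse, so the errors measure the spread between libraries, which may be technical. Of the markers of epithelial carcinoma, Krt8 was at a mean of 95.3 FPKM without and 110.0 FPKM with BMSCs, whereas Krt19 had no more than 3 counts in any library and group means of Epcam and Cdh1 lay between 0.00667 and 0.0333 FPKM.

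FPKM (fragments scaled to the length of the transcript and to the mapped total of the library) allows levels of genes of different length to be compared, and estimated counts give the depth behind each value. The libraries held 33476347 to 46189113 estimated counts, and a count of 3 or fewer, taken as the floor of a library, corresponded to 0.065 to 0.0896 CPM (counts scaled to the library total). Within LLC alone, replicate 3 stood apart, with a chi-square per gene of 59.3 and 56.9 against replicates 1 and 2, which differed from each other by 4.69. Within LLC with BMSCs, replicate 1 differed from replicates 2 and 3 by 19.3 and 18.9, and the latter from each other by 2.98. Long transcripts were also read less in LLC alone replicate 3, where the longest 20% of the genes lay at a median deviation of -0.365 (log2) from the mean of the libraries, against 0.104 to 0.18 in LLC with BMSCs. The members are long (5012 to 8420 bases on average over libraries), and values with that trend removed are given with the results.

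Fibrillar collagen transcripts were more abundant in LLC with BMSCs. Their summed level was 78.1, 79.6 and 63.8 FPKM in replicates 1, 2 and 3 of LLC alone, and 178.0, 166.0 and 167.0 FPKM in those of LLC with BMSCs. The groups did not overlap, and the means were 73.8 ± 8.72 FPKM (SD, n = 3) and 170.0 ± 6.66 FPKM (SD, n = 3). In sorted bulk RNA, fewer cells of a type and less RNA per cell cannot be told apart. Of the 8 members that entered the fit over all genes, 7 passed an adjusted p of 0.05 in the upward direction and 1, Col11a2, in the downward direction. Among all tested genes 62.9% passed it in either direction, 31.5% upwards and 31.3% downwards, and since the members were selected on this contrast nothing is read from their count. The FPKM values of the groups did not overlap for 7 tested members that were higher and 1 that was lower with BMSCs, and such separation was found for 70.6% of all tested genes, for 37% with the higher values in LLC with BMSCs. The median log2 fold change was 1.05 over the 8 members and 0.01 over all tested genes. Col1a1, counted among the higher members, passed the filter on low counts only through LLC with BMSCs. With at least 10 counts in every library Col1a1 was not fitted. The median over 7 members was then 0.85, against 0.01 over all genes fitted.

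**Figure D1:**
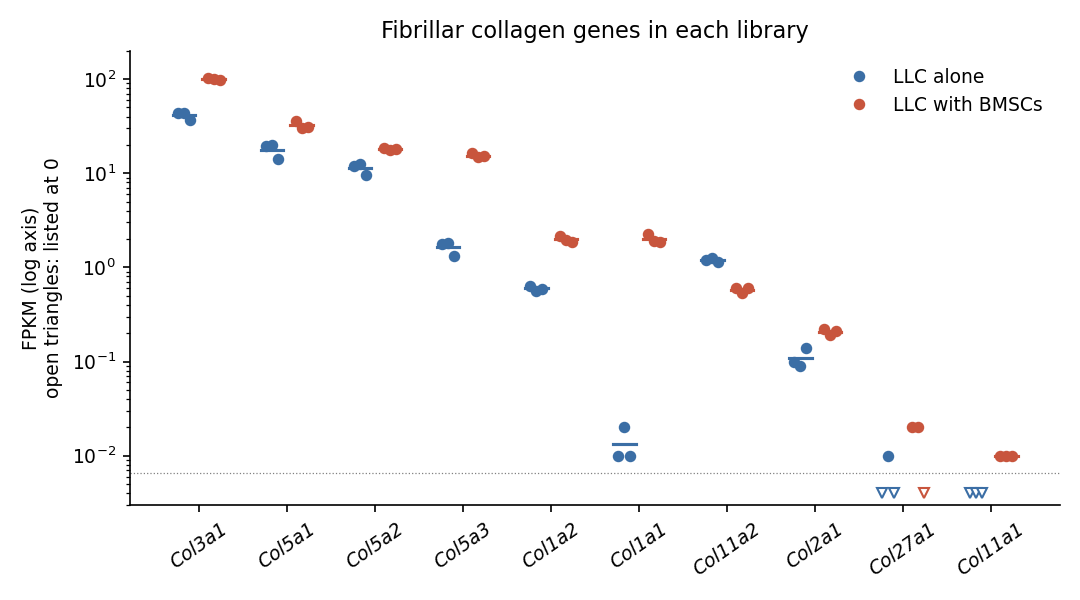
FPKM of each fibrillar collagen gene in the 6 libraries on a log axis, with a point for each library, a bar at the mean of 3 libraries where none was at 0, and open triangles for libraries in which the gene was listed at 0. Col3a1 was the highest member in each library, Col1a1 lay at 0.01 to 0.02 FPKM without BMSCs and at 1.85 to 2.24 FPKM with them, and Col11a2 was the member that lay lower in all 3 libraries of LLC with BMSCs.

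The stretches directly before the annotated starts of 5 members are shown. Col3a1 and Col5a1 had the highest level, and Col11a2 had the opposite direction. Col5a3 and Col1a2 had the largest relative differences of the tested members with an entry in the RefSeq promoter table used here (GRCm38.p6). Each stretch is 200 bases long, is written 5′ to 3′ on the strand of the gene and ends at the base before the start. Capitals mark the letters TATAAA, at which the general transcription machinery can assemble. They also mark CCAAT, the box bound by the NF-Y complex. The third motif in capitals is GGGCGG, the GC box bound by Sp1. All were searched on both strands, and none of the matches in these windows overlapped another. The positions on GRCm38.p6 are chr1:45311338-45311537 (plus strand) for Col3a1, chr2:27886225-27886424 (plus strand) for Col5a1, chr9:20815068-20815267 (minus strand) for Col5a3, chr6:4505418-4505617 (plus strand) for Col1a2 and chr17:34038938-34039137 (plus strand) for Col11a2.
Col3a1: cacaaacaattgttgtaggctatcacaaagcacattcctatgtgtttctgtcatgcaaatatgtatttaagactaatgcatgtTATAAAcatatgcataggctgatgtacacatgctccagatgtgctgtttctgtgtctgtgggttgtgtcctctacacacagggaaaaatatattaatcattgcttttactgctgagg
Col5a1: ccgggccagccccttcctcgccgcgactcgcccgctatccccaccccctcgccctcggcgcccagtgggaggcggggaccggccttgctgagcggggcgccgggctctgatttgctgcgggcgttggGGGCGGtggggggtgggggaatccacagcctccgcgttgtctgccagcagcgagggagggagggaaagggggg
Col5a3: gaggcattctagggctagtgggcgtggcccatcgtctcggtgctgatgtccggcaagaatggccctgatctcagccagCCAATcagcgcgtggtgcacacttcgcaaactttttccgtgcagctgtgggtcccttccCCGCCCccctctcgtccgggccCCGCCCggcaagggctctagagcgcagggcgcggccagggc
Col1a2: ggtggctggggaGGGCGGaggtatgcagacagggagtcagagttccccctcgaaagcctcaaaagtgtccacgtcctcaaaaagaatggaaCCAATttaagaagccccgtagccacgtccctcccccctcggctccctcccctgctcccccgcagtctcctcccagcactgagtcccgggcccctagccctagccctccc
Col11a2: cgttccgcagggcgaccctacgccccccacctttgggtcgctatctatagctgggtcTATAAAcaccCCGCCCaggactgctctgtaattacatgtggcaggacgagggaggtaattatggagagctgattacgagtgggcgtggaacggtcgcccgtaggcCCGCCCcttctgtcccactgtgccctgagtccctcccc

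Of the 10 members, 7 were matched in that table (these 5, Col11a1 and Col27a1), and the promoters of Col1a1, Col2a1 and Col5a2 were not analysed here. The GC box stood in 6 of the 7, with Col3a1 as the exception, and in 31% of the 32851 promoter windows of this length in the RefSeq table. CCAAT stood in 3 of the 7 (Col1a2, Col5a3 and Col11a1) and in 29.3% of all windows, and TATAAA in 2 (Col3a1 and Col11a2) and in 9.96%. The letters TTCNNNGAA, the core bound by STAT proteins, were in none of the 7 windows and in 5.49% of all. The windows also differed in base composition. The one of Col3a1 held 37.5% G or C and no CG pair, and that of Col5a1 75.5% and 20 CG pairs. A match describes the letters and is not a measured binding site.

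Col3a1, which encodes the only chain of type III collagen, was the most abundant member in both groups. It was at 43.14, 43.62 and 36.77 FPKM without BMSCs and at 101.72, 99.4 and 98.96 FPKM with them. All values with BMSCs lay above all values without, and those of LLC with BMSCs were within 3 FPKM of each other. The means were 41.2 ± 3.82 and 100.03 ± 1.48 FPKM (SD, n = 3), a log2 fold change of 1.26 ± 0.076 (SE) or 2.4-fold. By mean FPKM among the 13353 tested genes, Col3a1 ranked 2140th in LLC alone and 756th in LLC with BMSCs. All its counts were assigned to a single transcript of 5564 bases.

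The type V genes were the next most abundant, and of the 3 it was Col5a3 that differed most. Col5a1, the chain present in nearly all type V molecules, was at 19.42, 19.81 and 14.08 FPKM without BMSCs and at 36.12, 30.01 and 30.72 FPKM with them. The groups were separate, although replicate 3 of LLC alone and replicate 1 of LLC with BMSCs were each some way from their group. Mean levels were 17.8 ± 3.2 and 32.3 ± 3.34 FPKM (SD, n = 3), a log2 fold change of 0.84 ± 0.14 (SE). Its usual partner chain Col5a2 was at 11.8, 12.44 and 9.68 FPKM without BMSCs and at 18.37, 17.72 and 18.18 FPKM with them, again without overlap. This corresponded to means of 11.3 ± 1.44 and 18.1 ± 0.334 FPKM (SD, n = 3) and a log2 fold change of 0.66 ± 0.092 (SE).

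Col5a3, the chain of a rarer form of type V collagen, was at 1.78, 1.81 and 1.33 FPKM without BMSCs and at 16.48, 14.74 and 15.06 FPKM with them. It was therefore well below Col5a2 in every library of LLC alone and close to it in LLC with BMSCs, although the FPKM ranges of both genes remained separate. The means were 1.64 ± 0.269 and 15.4 ± 0.926 FPKM (SD, n = 3), a log2 fold change of 3.22 ± 0.12 (SE) or 9.3-fold. Within each library, Col5a1 exceeded Col5a3 by 10.8 ± 0.173-fold in LLC alone and by 2.09 ± 0.0866-fold in LLC with BMSCs (ratio of FPKM, mean ± SD, n = 3). By contrast, the ratio of Col5a1 to Col5a2 was 1.56 ± 0.103 and 1.78 ± 0.162, with ranges of 1.45 to 1.65 and 1.69 to 1.97. Counts of Col5a3 were split between RefSeq transcripts of 6135 and 6132 bases, and the longer one took 66.1% or more of them in LLC alone and 79.7% to 87.7% in LLC with BMSCs. As these differ by 3 bases in length, the split between them is uncertain, and it does not enter the gene values.

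The type I genes were low in FPKM in both groups, and Col1a1 had the largest relative difference of all tested members. Col1a1, which encodes the alpha 1 chain, had 2, 4 and 4 counts in LLC alone and 586, 499 and 477 counts in LLC with BMSCs. It was close to the floor in each library of LLC alone, at 0.01, 0.02 and 0.01 FPKM, and it was at 2.24, 1.92 and 1.85 FPKM in LLC with BMSCs. Summed over libraries, 10 counts stood against 1562 counts, a depth-scaled ratio of 148 with a 95% interval of 80.5 to 310.0 from the exact binomial (Clopper-Pearson) method, which covers counting error only. The fitted log2 fold change was 7.14 ± 0.22 (SE). Even so, Col1a1 in LLC with BMSCs ranked 9924th of the 13353 tested genes by mean FPKM, and Col3a1 exceeded it by 50.2 ± 4.27-fold (ratio of FPKM, mean ± SD, n = 3).

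Col1a2, which encodes the alpha 2 chain, had 186, 117 and 172 counts in LLC alone and 532, 475 and 460 counts in LLC with BMSCs. Its levels were 0.64, 0.56 and 0.59 FPKM and 2.13, 1.93 and 1.88 FPKM respectively, without overlap. The means were 0.597 ± 0.0404 and 1.98 ± 0.132 FPKM (SD, n = 3), a log2 fold change of 1.54 ± 0.097 (SE). The FPKM of Col1a2 divided by that of Col1a1 was thus 28.0 to 64.0 in the libraries of LLC alone and 0.951 to 1.02 in those of LLC with BMSCs.

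The transcript files separated the counts of Col1a2 further. They listed its RefSeq transcript of 5222 bases and a transcript of 6374 bases that the authors' pipeline had assembled. In LLC alone the assembled transcript carried 183.3, 112.84 and 168.52 estimated counts, 96.4% to 98.5% of those of the gene, and the RefSeq transcript 2.7, 4.16 and 3.48. The latter values were as low as those of Col1a1 in the same libraries. In LLC with BMSCs the assembled transcript carried 229.58, 194.72 and 190.11 counts and the RefSeq transcript 302.42, 280.28 and 269.89. The RefSeq transcript therefore held 1.45% to 3.56% of the counts of the gene in LLC alone and 56.8% to 59.0% in LLC with BMSCs. Summed over libraries and scaled for depth, the ratio of LLC with BMSCs to LLC alone was 81.0 (counting interval 43.8 to 170.0) for the RefSeq transcript and 1.25 (1.11 to 1.42) for the assembled one. These estimated counts rest on the division of shared reads between the transcripts, and the strand of the reads is not given in the sources used here. The sequence and position of the assembled transcript were not analysed here, so its relation to the annotated gene was not checked, and the level of Col1a2 in LLC alone, its fold change and its ratio to Col1a1 rest on it.

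**Figure D2:**
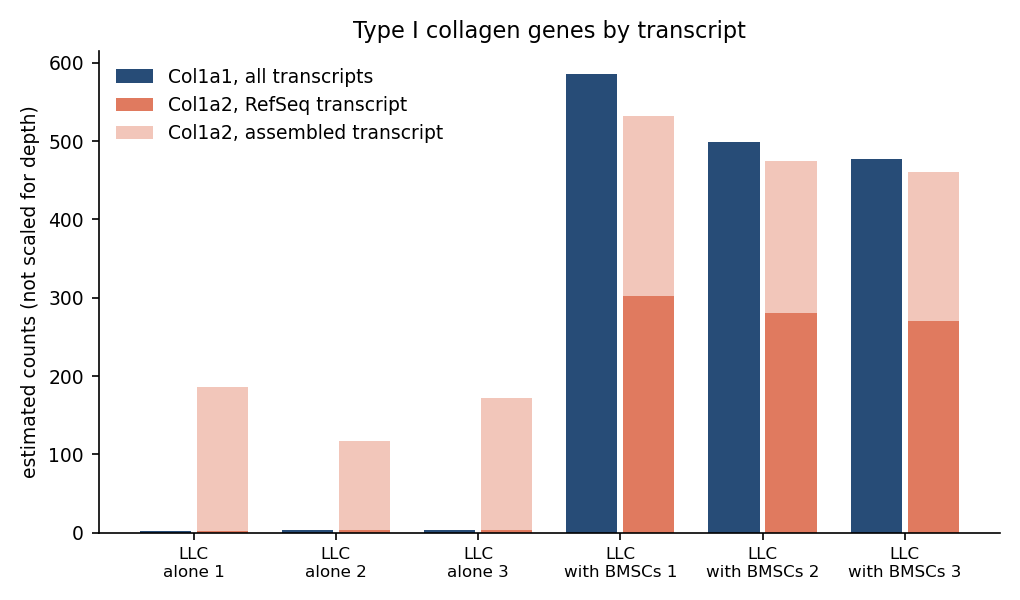
Estimated counts of Col1a1 and of the RefSeq and assembled transcripts of Col1a2 in each library, as bars from 0 and without scaling for depth. In LLC alone nearly all counts of Col1a2 lay on the assembled transcript and Col1a1 had 2 to 4 counts, whereas in LLC with BMSCs the RefSeq transcript had 269.89 to 302.42 counts and Col1a1 had 477 to 586.

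The genes of cartilage collagens were low, and Col11a2 went the other way. Col11a2, a chain of type XI collagen that can also join type V molecules, was at 1.19, 1.25 and 1.15 FPKM without BMSCs and at 0.6, 0.54 and 0.6 FPKM with them. The groups did not overlap, on 351, 265 and 337 counts against 173, 152 and 165. The means were 1.2 ± 0.0503 and 0.58 ± 0.0346 FPKM (SD, n = 3), a log2 fold change of -1.06 ± 0.091 (SE). The ratio of Col11a2 to Col5a1 was 0.0687 ± 0.0113 in LLC alone and 0.018 ± 0.00145 in LLC with BMSCs (FPKM, mean ± SD, n = 3). Its counts were divided between transcripts of 6541 and 6346 bases, and the share of the longer one varied from 19.3% to 47.2% within LLC alone and from 16.3% to 76.7% within LLC with BMSCs, so no difference between its transcripts could be read.

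Col2a1, the chain of type II collagen, had 23, 16 and 31 counts in LLC alone and 47, 40 and 45 counts in LLC with BMSCs. At 0.09 to 0.14 FPKM and 0.19 to 0.22 FPKM the groups were separate but low, with a log2 fold change of 0.82 ± 0.2 (SE). Replicates 1 and 2 of LLC alone carried these counts on a RefSeq transcript of 5149 bases and the other libraries on one of 4944 bases. The assignment rests on few counts and on the division of shared reads, so no difference between these transcripts could be read. Col11a1, the other type XI chain, had 0 counts in each library of LLC alone and 3 counts in each of LLC with BMSCs. All its libraries were at or under the floor of 3 counts, so it was not tested and no fold is given. Col27a1, the chain of type XXVII collagen, had 0, 2 and 0 counts in LLC alone and 6, 7 and 0 in LLC with BMSCs. The groups overlapped at 0, and the depth-scaled ratio of summed counts was 6.17 with a counting interval of 1.4 to 56.4.

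The order of the members by FPKM changed in its lower part. In both groups Col3a1 stood above Col5a1, Col5a1 above Col5a2 and Col5a2 above Col5a3, and none of these neighbours overlapped between libraries. In LLC alone they were followed by Col11a2, Col1a2 and Col2a1, each separate from the next, and then by Col1a1, Col27a1 and Col11a1, which overlapped with their neighbours. In LLC with BMSCs the fifth place was shared by Col1a1 (2.0 ± 0.208 FPKM) and Col1a2 (1.98 ± 0.132 FPKM), which overlapped, ahead of Col11a2 and Col2a1, and Col27a1 and Col11a1 came last and overlapped.

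As a share of the summed FPKM of the members, Col3a1 was 55.9 ± 1.55% in LLC alone and 58.7 ± 1.31% in LLC with BMSCs (SD, n = 3), and the ranges of 54.8 to 57.7% and 57.2 to 59.7% overlapped. Col5a1 took 24.0 ± 1.62% and 18.9 ± 1.25%, and Col5a2 15.3 ± 0.265% and 10.6 ± 0.3%. These chains therefore made up less of a larger total. The share of Col5a3 was 2.21 ± 0.107% and 9.03 ± 0.208%, and that of Col11a2 was 1.63 ± 0.149% and 0.34 ± 0.0172%. Col1a1 and Col1a2 took 0.0179 ± 0.00643% and 0.816 ± 0.111% in LLC alone and 1.17 ± 0.0819% and 1.16 ± 0.04% in LLC with BMSCs.

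**Figure D3:**
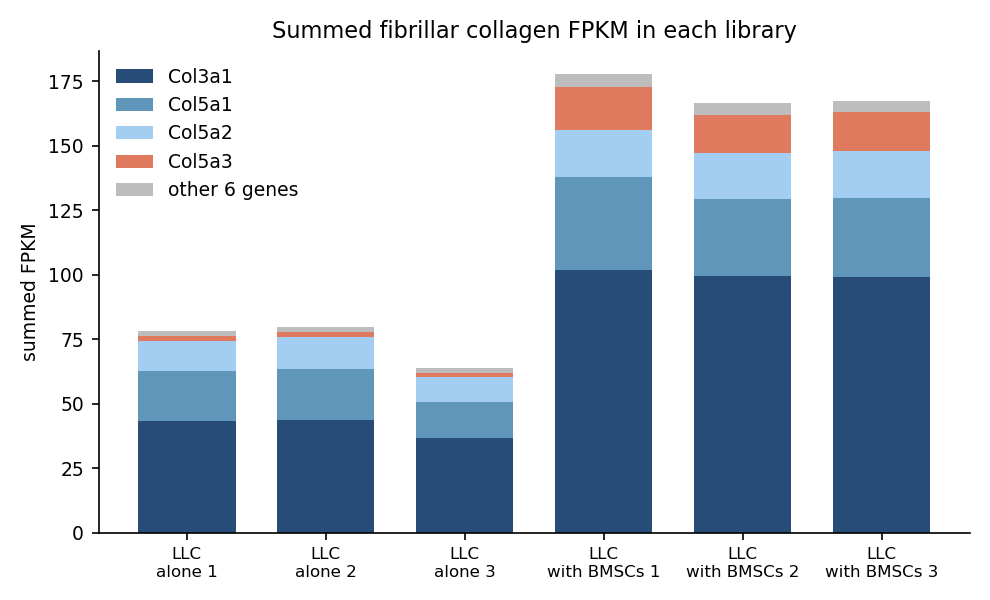
Summed FPKM of the 10 fibrillar collagen genes in each library, stacked by gene from 0, with the 6 lowest genes drawn together. The totals were 63.8 to 79.6 FPKM without and 166.0 to 178.0 FPKM with BMSCs, Col3a1 took 54.8% to 59.7% of each bar, and the segment of Col5a3 was 2.21% and 9.03% on average.

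The log2 fold changes of all 8 tested members were lower once the trends of the libraries with transcript length and GC content were taken out. The rises were thus smaller, and the fall of Col11a2 was larger. With both removed, the log2 fold change was 1.07 for Col3a1, 0.50 for Col5a1, 0.44 for Col5a2, 2.97 for Col5a3, 1.29 for Col1a2, 6.89 for Col1a1, 0.62 for Col2a1 and -1.33 for Col11a2. The median of the 8 members was then 0.84, against 0.02 over all genes fitted. Without LLC alone replicate 3 it was 1.10, with 1.19 for Col3a1, 0.71 for Col5a1, 0.56 for Col5a2 and 3.09 for Col5a3. None of the 8 changed direction under either setting.

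**Figure D4:**
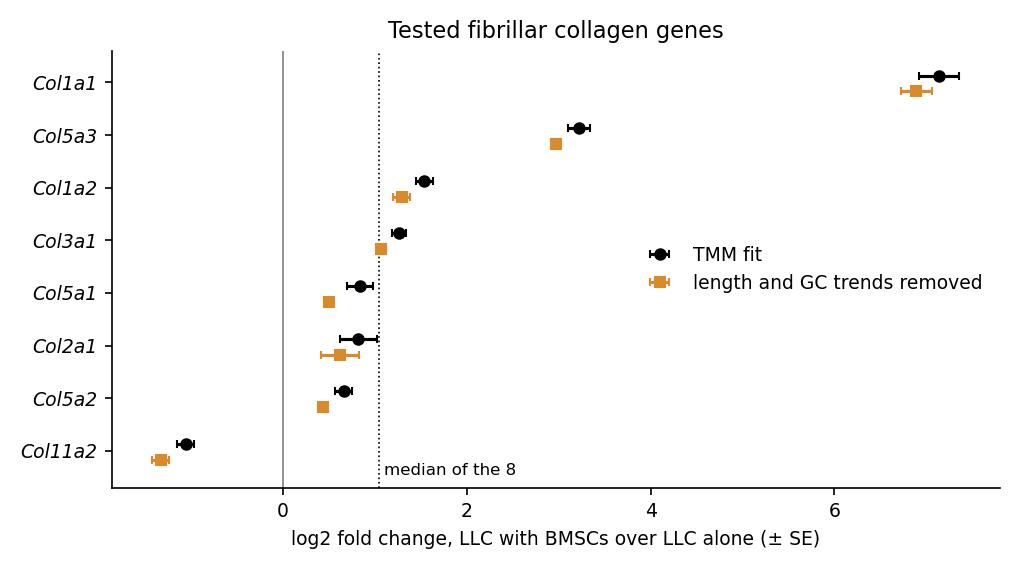
Log2 fold change of LLC with BMSCs over LLC alone for the 8 tested members, with bars of 1 SE, from the fit with TMM scaling (circles) and with the trends of length and GC content removed (squares), and a dotted line at their median of 1.05. The values ran from 7.14 for Col1a1 to -1.06 for Col11a2, and those of Col5a1 and Col5a2 fell to 0.50 and 0.44 with the trends removed.

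Col24a1, a fibrillar collagen gene that was not among the members, was at 0.87, 0.89 and 0.69 FPKM without BMSCs and at 1.1, 0.85 and 0.97 FPKM with them. The groups overlapped, and the log2 fold change of 0.23 ± 0.14 (SE) did not pass the test (adjusted p = 0.171, edgeR quasi-likelihood) and was -0.02 with the trends of length and GC content removed.

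Over the 6 libraries, the genes whose pattern lay nearest to that of Col3a1, by Euclidean distance of centred log2(FPKM + 0.1) compared with 10836 genes whose mean reached 1 FPKM, were Scd2 (distance 0.06), Add2 (0.08), Esyt3 (0.09), Stat3 (0.10) and Asph (0.11). Asph, which encodes an aspartate hydroxylase of the endoplasmic reticulum, had mean levels of 33.1 and 77.7 FPKM, and Scd2, a fatty acid desaturase, 51.1 and 122.0 FPKM. Stat3, a transcription factor activated by cytokine receptors, had 11.3 and 26.8 FPKM. The distances were taken over the same 2 groups of libraries as the fold changes.

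Genes of collagen folding, cleavage, cross-linking, fibril association, fibril binding, receptors, breakdown and regulation were measured in 8 lists of 109 genes, of which 105 were listed and 84 passed the filter. With BMSCs 45 rose (53.6%) and 16 fell (19.0%), against 31.5% and 31.3% of all tested genes, and 23 did not pass the test. Their median log2 fold change was 0.38. Some of the 45 passed the filter on low counts only through LLC with BMSCs, Lox, Dcn, Itga2, Mmp8 and Egr1 among them. Col20a1, which fell, passed it only through LLC alone. With at least 10 counts in every library 32 pathway genes rose and 14 fell, beside 3758 and 3832 of all 12181 genes fitted. The share that rose is therefore read no further. Counts of the single lists below stand beside the same 31.5% and 31.3% of all tested genes. The lists were drawn up with earlier results of these data known.

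Among 19 tested genes of procollagen folding and modification, 11 rose and 3 fell, with a median log2 fold change of 0.30. P4ha2, a catalytic subunit of the prolyl hydroxylase that stabilises the triple helix, rose from 8.42 ± 0.686 to 22.8 ± 0.447 FPKM (SD, n = 3; log2 fold change 1.42, adjusted p = 3.45e-06, edgeR). P4hb, the other subunit of this enzyme and a general protein disulfide isomerase, rose from 235.0 ± 2.88 to 294.0 ± 8.68 FPKM (0.30, adjusted p = 0.00151, edgeR). Serpinh1, the collagen chaperone HSP47, fell from 242.0 ± 14.0 to 136.0 ± 2.46 FPKM (-0.85, adjusted p = 2.23e-05, edgeR), opposite to most members. Ppib, a prolyl isomerase that acts on procollagen, was at 262.0 ± 41.7 and 248.0 ± 25.3 FPKM (-0.10, adjusted p = 0.5, edgeR), and its fold change had the opposite sign with the length trend removed.

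Of 5 tested genes of procollagen end cleavage, 3 rose and 1 fell (median 0.44). Adamts14, a protease that removes amino-terminal propeptides, rose from 3.15 ± 0.427 to 8.18 ± 0.0451 FPKM (1.36, adjusted p = 1.6e-05, edgeR). Pcolce, an enhancer of carboxy-terminal cleavage, was the most abundant gene of this list and fell from 386.0 ± 18.7 to 325.0 ± 20.9 FPKM (-0.27, adjusted p = 0.0123, edgeR), a call that was lost at -0.09 with the length trend removed. Its relative Pcolce2 was at 37.8 ± 1.01 and 38.1 ± 2.15 FPKM (-0.01, adjusted p = 0.923, edgeR).

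Of 4 tested cross-linking genes, 3 rose and none fell (median 1.15). Lox, the lysyl oxidase that starts cross-linking of fibrils, had 5, 4 and 2 counts in LLC alone and 676, 705 and 670 counts in LLC with BMSCs. As for Col1a1, the values of LLC alone were near the floor, and the depth-scaled ratio of summed counts was 177.0 with a counting interval of 98.8 to 355.0. Loxl2, a related oxidase, rose from 7.92 ± 0.886 to 28.7 ± 0.922 FPKM (1.83, adjusted p = 2.77e-06, edgeR) and Loxl3 from 4.8 ± 0.28 to 6.69 ± 0.207 FPKM (0.46, adjusted p = 0.000522, edgeR).

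Fibril-associated collagens, which sit on the surface of fibrils, had 2 of 6 tested genes higher and 2 lower (33.3% each, against 31.5% and 31.3% of all tested genes), with a median of 0.29. Col16a1 rose from 21.3 ± 2.36 to 38.4 ± 2.07 FPKM (0.83, adjusted p = 0.000142, edgeR) and Col12a1 from 1.84 ± 0.41 to 4.28 ± 0.417 FPKM (1.20, adjusted p = 0.000385, edgeR). Col14a1 fell from 0.103 ± 0.0153 to 0.0567 ± 0.0115 FPKM (-0.88, adjusted p = 0.0105, edgeR), a level at which few reads support it, and DESeq2 did not call it.

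Among 12 tested fibril-binding proteins, 6 rose and 3 fell (median 0.51). Dcn, the proteoglycan decorin that coats fibrils of type I collagen, had 8, 8 and 8 counts in LLC alone and 506, 526 and 492 counts in LLC with BMSCs. Its levels were 0.11 ± 0.0173 and 6.31 ± 0.223 FPKM (SD, n = 3). The depth-scaled ratio of summed counts was 60.3 with a counting interval of 40.4 to 94.4. Thbs2, a matricellular protein needed for regular fibrils in skin, fell from 30.2 ± 3.73 to 16.0 ± 0.37 FPKM (-0.94, adjusted p = 8.23e-05, edgeR). Fn1, the fibronectin on which fibrils are laid down, was at 40.3 ± 11.0 and 54.3 ± 5.83 FPKM (0.42, adjusted p = 0.091, edgeR), with its lowest value of 27.58 FPKM in LLC alone replicate 3. Sparc, a chaperone of secreted collagen, was at 31.5 ± 1.29 and 33.4 ± 1.48 FPKM (0.06, adjusted p = 0.428, edgeR).

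Of 8 tested collagen receptors, 4 rose and 1 fell (median 0.50). Itga2 and Lair1, which rose, passed the filter on low counts only through LLC with BMSCs, and the median includes them. The number that rose was 2 with at least 10 counts in every library. It was 1 with limma on log2(FPKM + 1) over the filtered genes and 6 with that method and no filter. The count of receptors that rose is therefore read no further. Itgb1, the shared beta subunit of the collagen-binding integrins, rose from 112.0 ± 4.59 to 168.0 ± 3.13 FPKM (0.56, adjusted p = 8.42e-05, edgeR). Itga2, an alpha subunit, had 4, 2 and 1 counts in LLC alone, near the floor, and 58, 64 and 50 counts in LLC with BMSCs. The depth-scaled ratio of its summed counts was 23.3 with a counting interval of 11.1 to 58.9. Ddr2, a tyrosine kinase that binds fibrillar collagen, was at 46.7 ± 9.3 and 58.4 ± 1.67 FPKM (0.30, adjusted p = 0.094, edgeR), and its fold change was -0.01 with the length trend removed. Ddr1, its relative, fell from 7.73 ± 0.118 to 6.72 ± 0.64 FPKM (-0.22, adjusted p = 0.0446, edgeR), a call that did not hold under most alternatives.

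Collagen breakdown was the list with the largest median, 2.32, and 7 of its 9 tested genes rose and 1 fell. The number that rose was 4 with at least 10 counts in every library and also 4 with limma on log2(FPKM + 1) over the filtered genes. Mmp1a, Mmp8 and Timp3 passed the filter on low counts only through LLC with BMSCs, and the median of 2.32 includes them. Mmp8, the collagenase best known from neutrophils, had 0 counts in each library of LLC alone and 93, 109 and 108 counts in LLC with BMSCs, at least 31.5-fold higher against the floor of 3 counts per library. Timp2, an inhibitor of these proteases, fell from 85.7 ± 1.14 to 47.3 ± 1.99 FPKM (-0.88, adjusted p = 1.21e-05, edgeR), and Timp1 was at 75.0 ± 9.03 and 86.1 ± 2.81 FPKM (0.18, adjusted p = 0.118, edgeR), a difference that was 0.53 and passed the test with the length and GC trends removed. With the genes that were at the floor in LLC alone set to their bound, the median of this list and those of the other pathway lists were the same. Each bound lay above the median of its list, so the medians could not move and nothing is concluded from this.

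Regulators of collagen genes were the list with the smallest median, 0.04, with 9 of 21 tested genes higher and 5 lower. Nfyc, a subunit of the NF-Y complex, fell from 37.5 ± 2.45 to 24.0 ± 1.1 FPKM (-0.66, adjusted p = 0.000154, edgeR). Egr1, an immediate early transcription factor, had 2, 0 and 0 counts in LLC alone and 85, 69 and 91 counts in LLC with BMSCs, at least 24.9-fold higher against the floor. Cebpb, a transcription factor of stress and cytokine responses, was at 45.8 ± 8.48 and 41.2 ± 2.63 FPKM (-0.17, adjusted p = 0.264, edgeR).

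**Figure D5:**
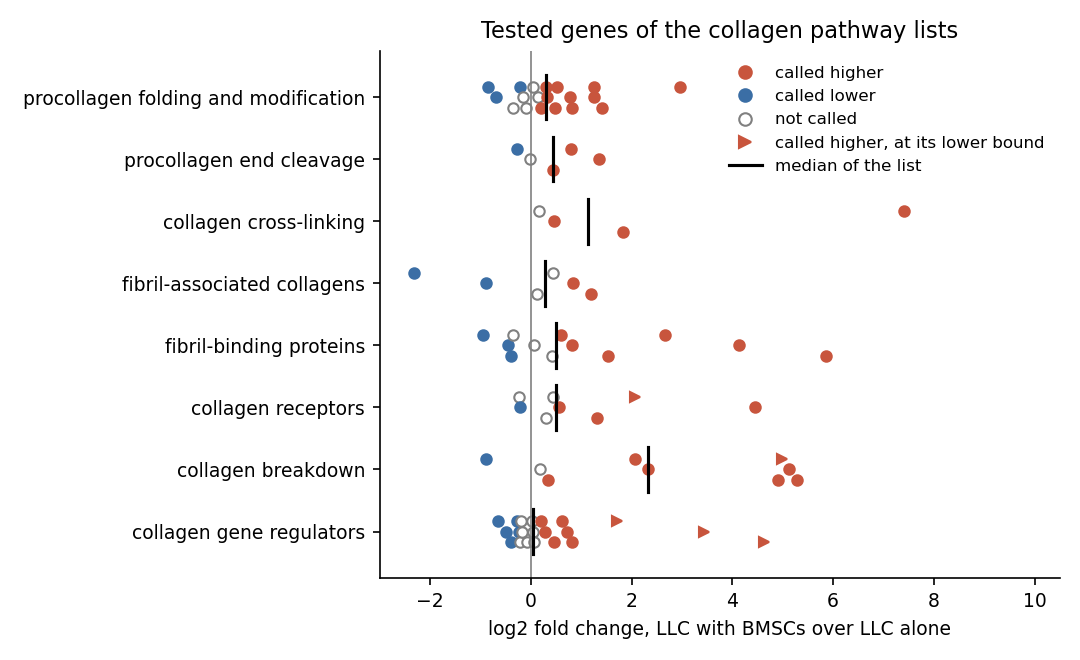
Log2 fold change of LLC with BMSCs over LLC alone for the 84 tested genes of the 8 pathway lists, a point for each gene, filled where it passed an adjusted p of 0.05, with a line at the median of each list. Triangles stand at the lower bound of genes that were at or under 3 counts in each library of LLC alone, and the medians ran from 0.04 for the regulators to 2.32 for collagen breakdown.

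Markers of other cells that a sorted tumour sample could hold also differed between the groups, and their part in the results above was not tested. Their counts stand against 31.5% of all tested genes that rose and 31.3% that fell, and lists of a few genes are read no further than their values. The lists share genes, so their counts are not separate observations. Pdgfra is both a stromal and a fibroblast marker and Pdgfrb both a stromal and a pericyte marker. Dcn, Lum and Dpt are also among the fibril-binding proteins, and Runx2 and Sox9 among the regulators. Of 9 tested markers of mesenchymal stromal cells 8 rose and 1, Kitl, fell, and their summed level was 400.0 to 476.0 CPM in LLC alone and 561.0 to 579.0 CPM in LLC with BMSCs, with Thy1 at no more than 3 counts in any library. All 5 tested fibroblast markers rose (65.4 to 73.3 and 114.0 to 119.0 CPM), with Fap at the floor in each library. Pdgfra (means 38.2 and 53.7 CPM) and Dpt (31.4 and 48.2 CPM) made up most of this sum. Of the tested fibroblast markers, Dcn (24 summed counts in LLC alone and 1524 in LLC with BMSCs), Lum (9 and 63) and Acta2 (12 and 235) passed the filter on low counts only through LLC with BMSCs. Of the fibroblast markers that were not tested, Pi16 went from 43 summed counts to 10, Mfap5 from 12 to 4 and Col15a1 from 30 to 19, with lower FPKM in all 3 libraries with BMSCs for the first pair, and Postn had 5 and 11. For pericytes 3 of 5 rose and 1 fell (34.9 to 47.0 and 50.2 to 56.1 CPM), with Kcnj8 at the floor. Pdgfrb made up most of this sum (means 35.5 and 47.8 CPM). Of 4 tested osteoblast markers none rose and 3 fell (74.5 to 77.5 and 60.5 to 69.6 CPM), with Ibsp at the floor. Their sum was mostly Runx2 (means 73.3 and 63.1 CPM). Of 2 tested chondrocyte markers 1 rose (4.98 to 5.88 and 9.05 to 10.6 CPM), with Comp, Matn1, Col9a1 and Hapln1 at the floor. Here the sum was mostly Sox9 (means 5.25 and 9.32 CPM). For macrophages 5 of 7 rose and 1 fell (23.8 to 28.6 and 33.9 to 36.2 CPM), with C1qa and C1qb at the floor. Adgre1, Mrc1 and Itgam, which rose, passed the filter only through LLC with BMSCs, as did Notch3 of the pericyte markers. Bglap2 and Alpl of the osteoblast markers, which fell, passed it only through LLC alone. All 4 tested neutrophil markers rose (0.383 to 0.699 and 17.3 CPM or more), and S100a8, S100a9 and Mpo passed the filter only through LLC with BMSCs. Two-way differences stood among the untested ones, as Ly6g had 8 summed counts in LLC alone and 5 in LLC with BMSCs, and Elane 0 and 26. Neither of 2 tested endothelial markers passed the test (1.06 to 1.31 and 1.39 to 1.77 CPM), with Tie1 and Cldn5 at the floor. Both tested epithelial markers, Krt8 and Krt18, rose (157.0 to 177.0 and 189.0 to 198.0 CPM), and Krt8 made up most of this (means 165.0 and 191.0 CPM). Krt18 (14 summed counts in LLC alone and 115 in LLC with BMSCs) passed the filter only through LLC with BMSCs. Among untested epithelial markers, Epcam had 9 and 2 summed counts, Cdh1 7 and 8, Cldn7 2 and 7 and Krt19 0 and 6. The summed level of the fibrillar collagens themselves was 403.0 to 510.0 CPM in LLC alone and 1030.0 to 1110.0 CPM in LLC with BMSCs.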

How the data were processed

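RNA was sequenced from 3 sorted samples per group (oligo-dT selection and paired-end sequencing on the BGISEQ-500 per the paper, Illumina protocols per the labels). The authors deposited estimated counts, without normalization and partly fractional, and FPKM, scaled to transcript length and library size, per gene and per transcript. The submitters' processing notes name HISAT, StringTie, Cufflinks, GATK and the build mm8, without roles. Reads shared between transcripts or similar genes are divided in such counts, and the use of strand is not given in the sources used here.

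Estimated counts were rounded and tested with the quasi-likelihood test of edgeR 4.0.16 in R 4.3.3 (TMM scaling, default filter on low counts, Benjamini-Hochberg adjustment over all tested genes, threshold 0.05). SE is the absolute log2 fold change over the square root of the F statistic. DESeq2 1.42.0, limma 3.58.1 on log2(FPKM + 1), other scalings and filters, loess removal of length and GC trends, and omission of each library served as alternatives, and the fits were tested on simulated data. Intervals and the floor of 3 counts cover counting error only.

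The members and lists were chosen with earlier results of these data known. All members, Col24a1, the 2 most abundant genes of each list and those with its largest called rise and fall at a mean of at least 20 normalized counts were named, and the 5 genes nearest to Col3a1. A FPKM table of the whole series, with 3 columns that match no label, was not used. Same-numbered libraries did not deviate together (correlations 0.0762, -0.106 and 0.0572), so the numbers were not taken as pairs.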

Additional observations from a re-analysis of the deposited data

How the results depend on the processing

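Since the members were selected on this contrast, their calls under other settings describe the processing and are no support. The counts of members higher and lower were 7 and 1 with DESeq2, with other scalings, with length and GC trends removed and without any single library, 8 and 1 with no filter on low counts, where Col11a1 was also called, 6 and 1 with at least 10 counts in every library or with limma on log2(FPKM + 1) over the filtered genes, and 5 and 1 at an adjusted p of 0.001. No tested member changed direction under any alternative run. The median was 0.84 (length and GC trends removed) to 1.13 (closest pair of each group summed) where the same 8 members were fitted, 0.85 to 1.28 over 7 members, and 0.74 (limma on log2(FPKM + 1), no filter) to 1.40 (DESeq2, or no filter) over all 10. The log2 fold change of Col1a1 was 1.57 with limma on log2(FPKM + 1), where the pseudocount sets it, and 6.81 to 7.42 without single libraries. That of Col2a1 ranged from 0.12 to 1.01, of Col5a1 from 0.50 to 0.96, of Col5a2 from 0.41 to 0.73 and of Col11a2 from -1.33 to -0.48.

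Fitting a replicate block changed no call of a member. It gave 4161 genes higher and 4058 lower in place of 4210 and 4183, and 45 and 15 pathway genes in place of 45 and 16, and Fn1 passed the test with it (0.45). Without single libraries the counts ranged from 3617 to 4736 genes higher and 3581 to 4539 lower, and from 41 to 48 and 11 to 17 pathway genes. The pathway counts were 32 and 14 with at least 10 counts in every library, 34 and 11 with limma over the filtered genes and 39 and 11 with the closest pair of each group summed. Signs turned with the length trend, or the length and GC trends, removed for Col24a1 (-0.04 and -0.02), Cebpb (0.02 and 0.03), Ddr2 (-0.01 in both), Ppib (0.20 and 0.24) and Pcolce2 (0.12 and 0.13). Pcolce2 also reversed to 0.01 without TMM and with limma, to 0.02 without LLC alone replicate 3 and to 0.03 without LLC with BMSCs replicate 1 (range -0.03 to 0.03 over omitted libraries). Ppib reversed to 0.05 without LLC alone replicate 3 (range -0.17 to 0.05), a library whose omission also brought Ddr2 (0.14), Fn1 (0.21) and Timp1 (0.29) past the threshold, as did that of replicate 2 for Ddr2 (0.41). The cause was not tested. The call of Col11a1 rests on 3 counts in each library with BMSCs, that is on the floor, and 3 libraries per group limit all errors.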
